A study of Mus musculus with 23 samples.

Results

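The genes described here are 5 cytochrome P450 genes of the Cyp4f family (Cyp4f13, Cyp4f14, Cyp4f15, Cyp4f16 and Cyp4f18) and 4 genes of leukotriene synthesis (Alox5, Alox5ap, Lta4h and Ltc4s). They were taken by symbol from the 24716 genes of the deposited count table, and all 9 were found there and were among the 20189 genes that passed the filter on low counts. The set was chosen by the diet contrast in CAST/EiJ of these same libraries, in which Cyp4f18 and Cyp4f14 were higher on 44% fat. Values of that contrast are therefore given as a description without a test. The diet contrasts of the other strains, which were not used in the choice, were tested. The strain contrasts were tested too, but those of CAST/EiJ average over the same CAST/EiJ libraries that guided the choice of Cyp4f18 and Cyp4f14.

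Leukotrienes are lipid signals made from arachidonate, a fatty acid that phospholipases free from membranes. 5-lipoxygenase (Alox5) and the membrane protein that presents arachidonate to it (Alox5ap, also called FLAP) make leukotriene A4. From it, leukotriene A4 hydrolase (Lta4h) makes leukotriene B4, which draws neutrophils and other leukocytes, and leukotriene C4 synthase (Ltc4s) makes leukotriene C4 by joining it to glutathione. Cyp4f enzymes sit in the endoplasmic reticulum and add hydroxyl groups at or near the end of the chain of leukotriene B4 and other fatty acids, which lowers the activity of leukotriene B4. In the ovary, lipid signals of this kind are known mainly from ovulation, which shares features with inflammation.

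RNA was sequenced from ovaries of wild-type female mice of 3 inbred strains on 2 diets. CAST/EiJ, bred from wild mice of the castaneus subspecies, had 4 libraries on a diet with 44% fat and 4 on a diet with 10% fat. NZO/HlLtJ, a strain that becomes obese and is used as a diabetes model, also had 4 on 44% fat and 4 on 10% fat, and C57BL/6J, the usual reference strain, had 4 on 44% fat and 3 on 10% fat. Since sugar was raised along with fat, the effects of these nutrients cannot be told apart. Both diets carried fiber in the labels, were given from the age of 6 weeks and ended with tissue collection at 15 weeks. The labels give neither the cycle stage nor whether each library came from its own animal, so a p-value here sets a difference against library-to-library spread, part of which may be technical.

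Library totals lay between 31.9 and 45.9 M estimated counts. Levels are CPM, counts scaled to the library total with normalization factors applied, and levels are compared between genes only per kilobase of the longest protein-coding transcript. CAST/EiJ 10% fat replicate 2 stood apart, with 5213 summed CPM over 9 oviduct epithelium markers and 1942 over 8 white adipocyte markers, against 58.3 to 64.0 and 74.9 to 123 CPM for the other CAST/EiJ 10% fat libraries. C57BL/6J 44% fat replicate 1 had 255 summed CPM of oviduct markers, against 21.8 to 48.3 in the rest of its group. For the genes named below, a call that these libraries change is given with and without them. In RNA from a whole organ, fewer cells of a type and less RNA per cell cannot be told apart.

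The Cyp4f genes are close relatives, and how alike they are bears on whether reads can be assigned to one of them. Each P450 holds its haem iron through a cysteine in a conserved stretch near the end of the protein, and the DNA that codes for this stretch follows, 5′ to 3′, with the cysteine codon in capitals, as read from GENCODE M21 transcripts.
Cyp4f18: ttctcggctgggcccaggaacTGCatagga
Cyp4f14: ttctcggcgggacccaggaacTGCatagga
Cyp4f15: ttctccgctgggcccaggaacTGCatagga
Cyp4f13: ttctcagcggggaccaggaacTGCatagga
Cyp4f16: ttttctgccgggcccaggaacTGCatagga
Over these 30 bases, Cyp4f14 differed from Cyp4f18 at 2 positions, from Cyp4f13 and from Cyp4f15 at 3 each and from Cyp4f16 at 4. Over the whole coding sequence, the 5 genes were 77% to 82.8% identical to each other. Of all 100-base windows along the reference transcript, the read length of the libraries, 0% occurred in a transcript of another gene for Cyp4f13, Cyp4f14, Cyp4f15, Alox5, Lta4h and Ltc4s. The share was 1.12% for Cyp4f18, with Zfp961, 0.694% for Alox5ap, with Gm19719, and 9.8% for Cyp4f16, with Cyp4f17 and Cyp4f37, so the counts of Cyp4f16 are the least certain of the set. These shares describe the C57BL/6J sequence. Whether reads of CAST/EiJ and NZO/HlLtJ were counted against their own sequences is not given in the sources used here, so in every strain comparison below a difference in RNA and a difference in how well reads match the reference cannot be told apart.

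Cyp4f18 lies alone on chromosome 8, at 71988482 to 72009626 on the minus strand of GRCm38 (ENSMUSG00000003484). The other 4 lie in a cluster on chromosome 17 with Cyp4f17, Cyp4f37 and Cyp4f39, 7 genes listed over 478.9 kb: Cyp4f16 at 32536558 to 32551798 and Cyp4f15 at 32685627 to 32703352 on the plus strand, and Cyp4f14 at 32905071 to 32917342 and Cyp4f13 at 32924688 to 32947402 on the minus strand. The leukotriene synthesis genes lie apart from each other, Alox5 on chromosome 6 (116410077 to 116461178), Alox5ap on chromosome 5 (149264767 to 149288153), Lta4h on chromosome 10 (93453396 to 93484896) and Ltc4s on chromosome 11 (50236469 to 50238616).

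For Cyp4f18 and Cyp4f14, whose diet difference in CAST/EiJ guided the choice of the set, the 250 bases before each start are shown. They are taken from RefSeq promoters of build GRCm38.p6, 5′ to 3′ on the strand of the gene (minus for both). The capitals mark the longest run of letters found in both windows, which was picked after comparing them. Cyp4f18 is at chr8:72009627-72009876 and Cyp4f14 at chr17:32917343-32917592.
Cyp4f18: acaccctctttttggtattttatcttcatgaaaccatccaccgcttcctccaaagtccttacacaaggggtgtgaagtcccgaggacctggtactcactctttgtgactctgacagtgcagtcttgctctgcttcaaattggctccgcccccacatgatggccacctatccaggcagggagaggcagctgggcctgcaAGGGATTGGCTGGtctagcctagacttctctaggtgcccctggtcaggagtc
Cyp4f14: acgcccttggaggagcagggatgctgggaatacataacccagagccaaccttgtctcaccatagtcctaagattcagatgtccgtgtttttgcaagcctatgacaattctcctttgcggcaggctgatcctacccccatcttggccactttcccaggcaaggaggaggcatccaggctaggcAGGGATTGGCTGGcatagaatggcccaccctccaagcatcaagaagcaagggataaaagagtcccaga
The run AGGGATTGGCTGG is 13 bases long and begins 52 bases before the start of Cyp4f18 and 68 bases before that of Cyp4f14. On either strand it occurred in 6 of the 32851 RefSeq promoter windows (0.0183%), namely 3 windows of Cyp4f14, 1 of Cyp4f18 and 1 each of Mfsd2a and Atp2a1, and in no window of the other members. That share is no test, since the run was picked for being shared by related genes, 80.1% identical over the coding sequence. The build is that of C57BL/6J, where the diet differences of Cyp4f14 and Cyp4f18 were -1.01 and -0.05. Whether the run bears on the levels was not tested. It holds ATTGG, the complement of the CCAAT box, which is found in 37.4% of all windows on one strand or the other. Windows were matched for 8 of the 9 members, and 6 of the 8 hold a CCAAT box on one strand or the other: all 5 Cyp4f genes, nearest at 23 to 78 bases before the start, and Lta4h. The C/EBP half-site pair TTGCNNAA, found in 10.8% of all windows, had 1 match in the window of Cyp4f14, on its minus strand 163 bases before the start, and 0 in that of Cyp4f18. The PPAR-RXR direct repeat, the NR5A site CAAGGTCA, the PU.1 site GAGGAAGT and the TATA box TATAAA had 0 matches on either strand in the windows of Cyp4f18 and Cyp4f14, which run 50 bases past the start. These motifs are found in 0.0396%, 1.56%, 3.2% and 13.6% of all windows.

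Cyp4f18, known in mice as a leukotriene B4 hydroxylase of neutrophils, had the widest spread of group levels. It was at 36.9, 34.4, 65.2 and 38.0 CPM in CAST/EiJ on 44% fat and at 6.36, 9.73, 9.66 and 4.36 CPM in CAST/EiJ on 10% fat. In NZO/HlLtJ it was at 1.18, 0.808, 0.888 and 1.40 CPM on 44% fat and at 0.620, 0.732, 2.61 and 1.10 CPM on 10% fat. In C57BL/6J it was at 1.97, 2.54, 2.24 and 2.09 CPM on 44% fat and at 2.33, 2.01 and 2.50 CPM on 10% fat. Every CAST/EiJ library was above every library of the other strains, and within CAST/EiJ every 44% fat library was above every 10% fat library. The order of the group means ran from CAST/EiJ 44% fat over CAST/EiJ 10% fat to both C57BL/6J groups and then both NZO/HlLtJ groups, and only the first pair of neighbours and the next did not overlap. Over both diets, Cyp4f18 averaged 25.6 ± 21.6 CPM in CAST/EiJ (SD, n = 8), 1.17 ± 0.635 CPM in NZO/HlLtJ (n = 8) and 2.24 ± 0.227 CPM in C57BL/6J (n = 7).

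Cyp4f14, a leukotriene B4 hydroxylase studied mainly in mouse liver, followed another order. It was at 4.55, 4.97, 9.03 and 4.32 CPM in CAST/EiJ on 44% fat and at 1.64, 1.39, 2.28 and 1.58 CPM in CAST/EiJ on 10% fat. In NZO/HlLtJ it was at 5.33, 5.45, 3.61 and 5.58 CPM on 44% fat and at 5.61, 5.22, 12.0 and 6.44 CPM on 10% fat. In C57BL/6J it was at 5.56, 7.38, 6.39 and 9.07 CPM on 44% fat and at 16.4, 8.66 and 17.9 CPM on 10% fat. The CAST/EiJ 10% fat libraries were below all others, while on 44% fat the libraries of the 3 strains overlapped. The other 4 CAST/EiJ libraries thus reached the range of the other strains, and the group with the highest mean was C57BL/6J on 10% fat.

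Cyp4f15 was higher in CAST/EiJ on both diets. It was at 6.42, 9.48, 11.9 and 9.54 CPM in CAST/EiJ on 44% fat and at 5.11, 15.6, 10.4 and 3.02 CPM in CAST/EiJ on 10% fat. It lay between 0.499 and 1.38 CPM in the 8 NZO/HlLtJ libraries and between 0.665 and 3.04 CPM in the 7 C57BL/6J libraries. The lowest CAST/EiJ library, at 3.02 CPM, lay just under the highest C57BL/6J library, at 3.04 CPM, and above all NZO/HlLtJ libraries.

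Cyp4f13 and Cyp4f16 had the smallest spread of group levels among the Cyp4f genes. Cyp4f13 averaged 38.4 ± 2.02 CPM in CAST/EiJ on 44% fat and 34.6 ± 3.32 on 10% fat, 25.4 ± 2.01 and 27.4 ± 5.17 in NZO/HlLtJ, and 21.7 ± 2.80 and 29.5 ± 5.41 in C57BL/6J (SD, 44% before 10% fat, n = 4 a group and 3 in the last). Every CAST/EiJ library on 44% fat was above every C57BL/6J library on 44% fat. It was the Cyp4f gene with the highest level per kilobase over all 23 libraries, at 16.8 ± 3.80 CPM. Cyp4f16 had group means between 12.0 and 14.7 CPM, and each group overlapped its neighbour in the order of means. Per kilobase Cyp4f16 averaged 5.74 ± 0.688 CPM over all libraries, Cyp4f18 5.87 ± 9.90, Cyp4f14 2.94 ± 1.91 and Cyp4f15 1.75 ± 2.07, so the spread over libraries was larger than the mean for Cyp4f18 and Cyp4f15 and well under it for Cyp4f16.

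**Figure D1:**
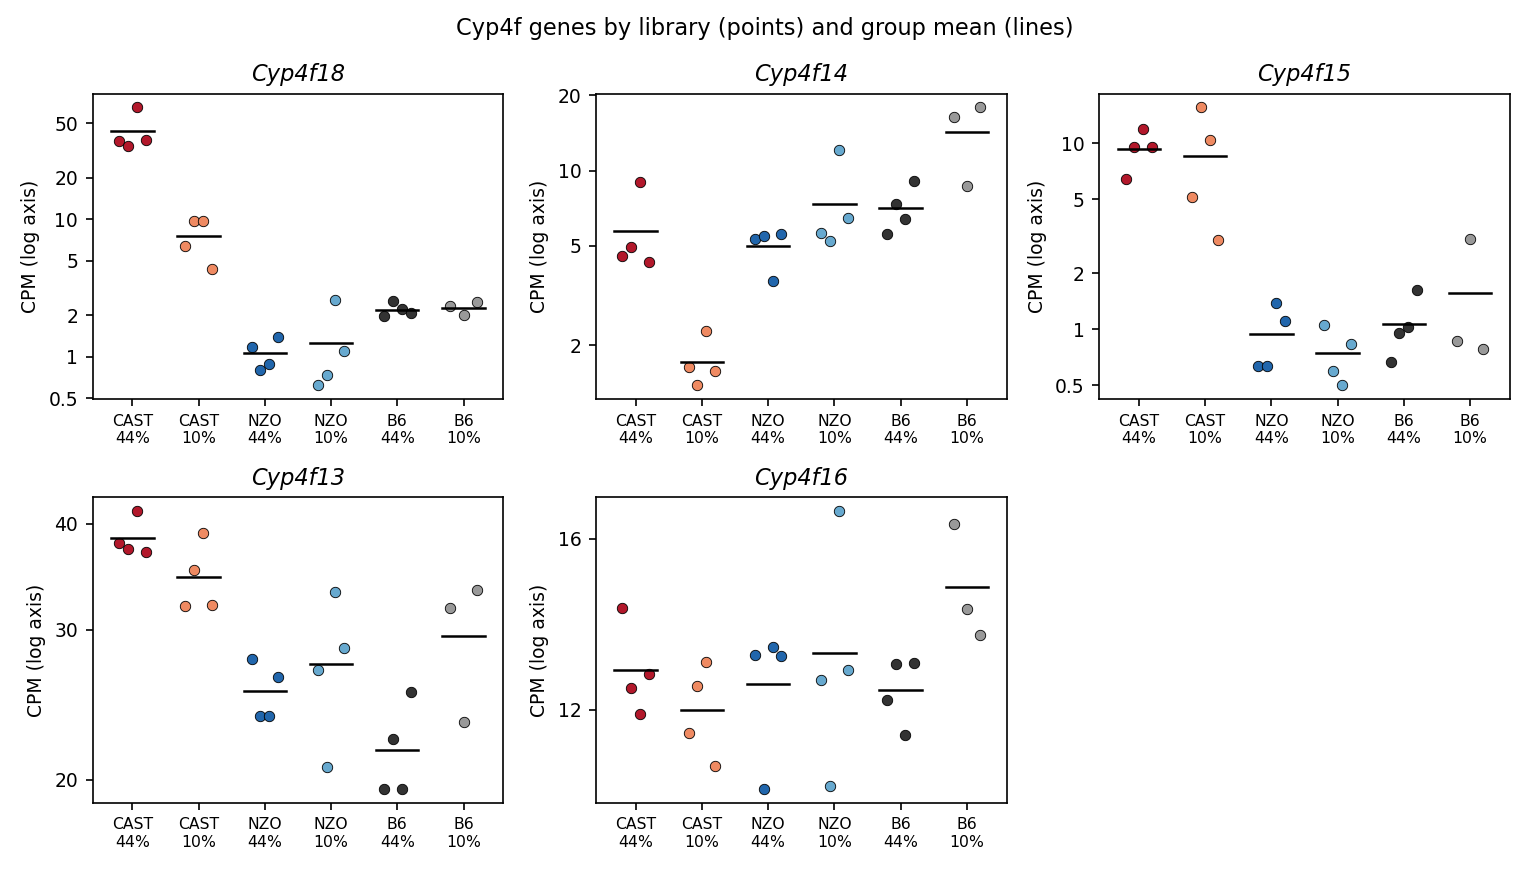
CPM on a log axis of the 5 Cyp4f genes in each library (points), with group means as lines, for CAST/EiJ (CAST), NZO/HlLtJ (NZO) and C57BL/6J (B6) on 44% and 10% fat. Cyp4f18 is at 34.4 to 65.2 CPM in CAST/EiJ on 44% fat and at 4.36 to 9.73 CPM on 10% fat, while Cyp4f16 stays between 10.5 and 16.8 CPM in all groups.

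The leukotriene synthesis genes differed widely in level. Lta4h was the highest of all 9 genes, at 34.6 ± 4.63 CPM per kilobase over the 23 libraries, followed among the 4 by Alox5ap at 4.41 ± 1.89, Ltc4s at 1.43 ± 1.46 and Alox5 at 0.302 ± 0.137. Alox5, which starts the pathway, was thus the lowest of the 9, with a mean of 33.3 counts per library, so that its values carry a large counting error.

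Alox5 was at 1.58, 1.04, 0.897 and 1.30 CPM in CAST/EiJ on 44% fat and at 0.727, 1.96, 0.894 and 0.788 CPM on 10% fat, where the value of 1.96 belongs to the library with the most oviduct RNA. It lay between 0.229 and 1.02 CPM in NZO/HlLtJ and between 0.387 and 0.968 CPM in C57BL/6J. All strains overlapped.

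Alox5ap ran the other way. It was at 4.11, 3.66, 2.83 and 2.42 CPM in CAST/EiJ on 44% fat and at 1.69, 6.74, 2.63 and 2.10 CPM on 10% fat, where 6.74 CPM again belongs to the library with the most oviduct RNA. It was at 4.91, 5.17, 6.91 and 6.27 CPM in NZO/HlLtJ on 44% fat and at 4.60, 4.44, 6.84 and 5.05 CPM on 10% fat. In C57BL/6J it was at 7.47, 8.48, 6.61 and 8.42 CPM on 44% fat and at 7.91, 10.8 and 6.87 CPM on 10% fat. Apart from that 1 library, every CAST/EiJ library lay below every library of the other strains.

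Lta4h was at 75.4, 83.8, 80.2 and 77.8 CPM in CAST/EiJ on 44% fat and at 75.5, 65.5, 65.0 and 72.0 CPM on 10% fat. It was at 53.6 to 60.3 CPM in NZO/HlLtJ on 44% fat and 59.6 to 65.9 CPM on 10% fat, and at 73.9 to 79.7 CPM in C57BL/6J on 44% fat and 76.1 to 84.3 CPM on 10% fat. NZO/HlLtJ was below C57BL/6J in every library.

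Ltc4s was at 2.07, 1.37, 5.38 and 0.999 CPM in CAST/EiJ on 44% fat and at 0.540, 1.44, 0.794 and 0.447 CPM on 10% fat. It lay between 0.317 and 0.909 CPM in NZO/HlLtJ and between 0.251 and 1.35 CPM in C57BL/6J. A single library, CAST/EiJ 44% fat replicate 3, held the highest value, and it was also the library with the highest Cyp4f18 and Cyp4f14 of its group.

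**Figure D2:**
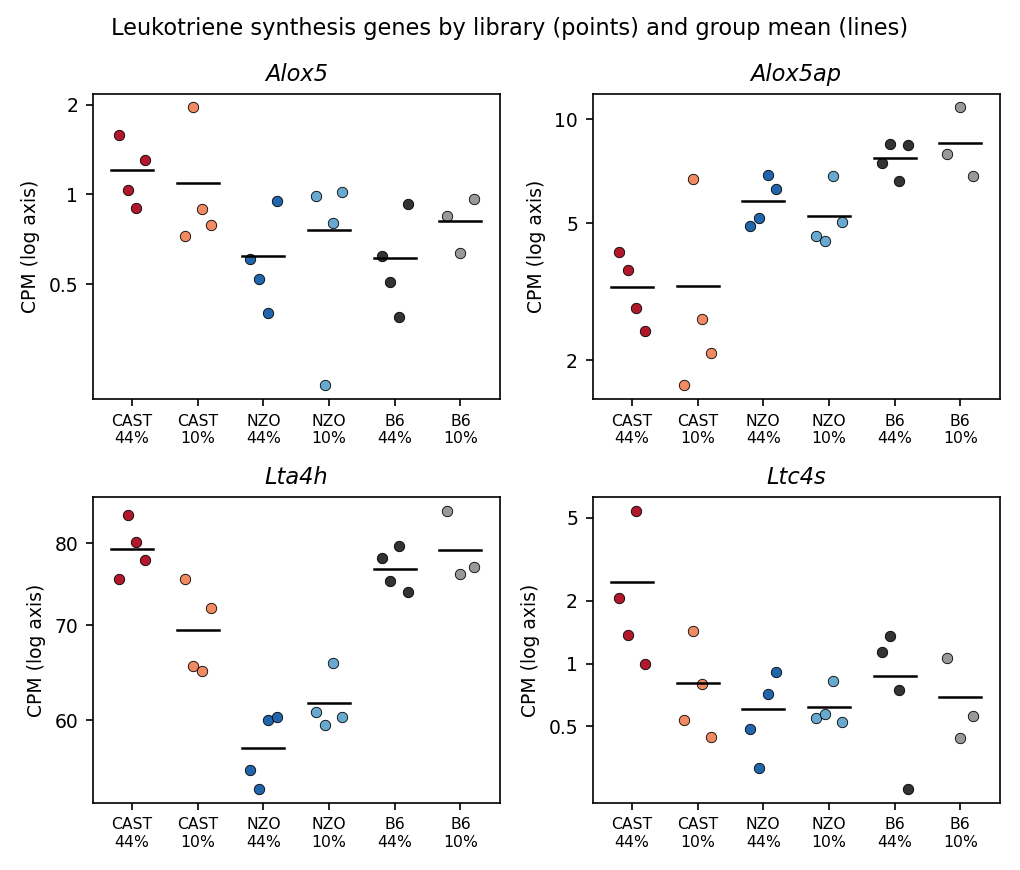
CPM on a log axis of Alox5, Alox5ap, Lta4h and Ltc4s in each library (points), with group means as lines, for CAST/EiJ (CAST), NZO/HlLtJ (NZO) and C57BL/6J (B6) on 44% and 10% fat; the range of each axis differs. Lta4h is lower in NZO/HlLtJ, at 53.6 to 65.9 CPM, than in C57BL/6J, at 73.9 to 84.3 CPM, and Alox5ap is highest in C57BL/6J.

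To ask how strain acts on these genes, CAST/EiJ was set against C57BL/6J, averaged over diets. Of the 9 genes, 3 were higher, 2 lower and 4 did not pass (edgeR adjusted p under 0.05), where 46.8% of all genes tested passed, 23.2% higher and 23.6% lower. Cyp4f18 was higher by 3.01 ± 0.27 on the log2 scale (SE), or 8.07-fold, Cyp4f15 by 2.78 ± 0.37, or 6.88-fold, and Cyp4f13 by 0.53 ± 0.10, or 1.44-fold (edgeR adjusted p of 2.04e-08, 4.14e-06 and 0.000127). Cyp4f14 was lower, with a log2 difference of -1.68 ± 0.22 (3.21-fold, edgeR adjusted p = 2.66e-06), and so was Alox5ap, at -1.31 ± 0.23 (2.49-fold, edgeR adjusted p = 8.57e-05). Cyp4f16, Alox5, Lta4h and Ltc4s did not pass, with log2 differences of -0.12, 0.69, -0.07 and 0.85 and edgeR adjusted p of 0.258, 0.0689, 0.214 and 0.0828. Libraries did not overlap for 1 of the 9 genes, Cyp4f18, against 15.9% of all genes, 7.84% higher and 8.03% lower. Within the 3 series of library identifiers, compared at equal diet, the 5 differences that passed kept their direction in each series, with log2 values of 2.81 to 4.16 for Cyp4f18, 2.51 to 3.32 for Cyp4f15, 0.48 to 0.63 for Cyp4f13, -1.78 to -1.06 for Cyp4f14 and -1.78 to -0.78 for Alox5ap. For Cyp4f18, whose libraries did not overlap, no other direction was possible. The averages over diets of Cyp4f18 and Cyp4f14 hold the diet differences of CAST/EiJ that guided the choice of genes, so the values on each diet above should be read beside them.

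CAST/EiJ against NZO/HlLtJ, averaged over diets, gave 6 genes higher, 2 lower and 1 that did not pass, where 48.1% of all genes tested passed, 24.8% higher and 23.4% lower. Cyp4f18 was higher by 3.95 ± 0.27, or 15.5-fold, and Cyp4f15 by 3.41 ± 0.36, or 10.6-fold (edgeR adjusted p of 2.59e-10 and 1.81e-07), and these were the 2 of 9 genes whose libraries did not overlap, against 16.8% of all genes, 8.13% higher and 8.66% lower. Cyp4f13 was higher by 0.47 ± 0.09, Lta4h by 0.32 ± 0.04, Ltc4s by 1.19 ± 0.38 and Alox5 by 0.73 ± 0.29 (edgeR adjusted p of 0.000266, 4.52e-06, 0.0141 and 0.0445). Cyp4f14 was lower, at -0.95 ± 0.21 (1.93-fold, edgeR adjusted p = 0.00094), and this difference lay in the 10% fat libraries, at 1.72 ± 0.390 CPM in CAST/EiJ and 7.33 ± 3.19 CPM in NZO/HlLtJ (SD, n = 4 each). On 44% fat the libraries overlapped, at 4.32 to 9.03 CPM in CAST/EiJ and 3.61 to 5.58 CPM in NZO/HlLtJ. Alox5ap was lower, at -0.75 ± 0.22 (1.69-fold, edgeR adjusted p = 0.00798). Cyp4f16 differed by -0.05 ± 0.08 (edgeR adjusted p = 0.645). The call of Alox5 was lost in 17 of 31 alternatives, among which its adjusted p ran from 0.0249 to 0.137 (0.131 when CAST/EiJ 10% fat replicate 2 was left out), and that of Ltc4s was lost without CAST/EiJ 44% fat replicate 3 (0.0551). Within the identifier series the direction held in each of the 3 for all the genes that passed, Cyp4f14 lying between -2.63 and -0.055, but for Alox5ap, which was at 0.19 in the 1 series where CAST/EiJ was represented on the shared diet by its library with the most oviduct RNA, and at -1.07 overall without that library. For Cyp4f18 and Cyp4f15, whose libraries did not overlap, no other direction was possible. Here too, the averages over diets of Cyp4f18 and Cyp4f14 hold the diet differences of CAST/EiJ that guided the choice of genes.

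NZO/HlLtJ against C57BL/6J, averaged over diets, gave 0 genes higher, 3 lower and 6 that did not pass, where 23.9% of all genes tested passed, 11.6% higher and 12.3% lower. Lta4h was lower, at -0.39 ± 0.05 on the log2 scale (1.31-fold, edgeR adjusted p = 1.84e-06), and was the 1 gene of 9 without overlap of libraries, against 7.79% of all genes, 3.85% higher and 3.93% lower. Cyp4f18 was lower at -0.94 ± 0.26 (1.92-fold) and Cyp4f14 at -0.74 ± 0.21 (1.67-fold), with edgeR adjusted p of 0.0133 and 0.0158. All 3 were lower within each of the 3 identifier series, which for Lta4h, without overlap, had to be so. The call of Cyp4f14 was lost without C57BL/6J 10% fat replicate 3 (edgeR adjusted p = 0.052), and Alox5ap, at -0.56 ± 0.23 (edgeR adjusted p = 0.0781), passed without CAST/EiJ 10% fat replicate 2 (edgeR adjusted p = 0.00617).

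**Figure D3:**
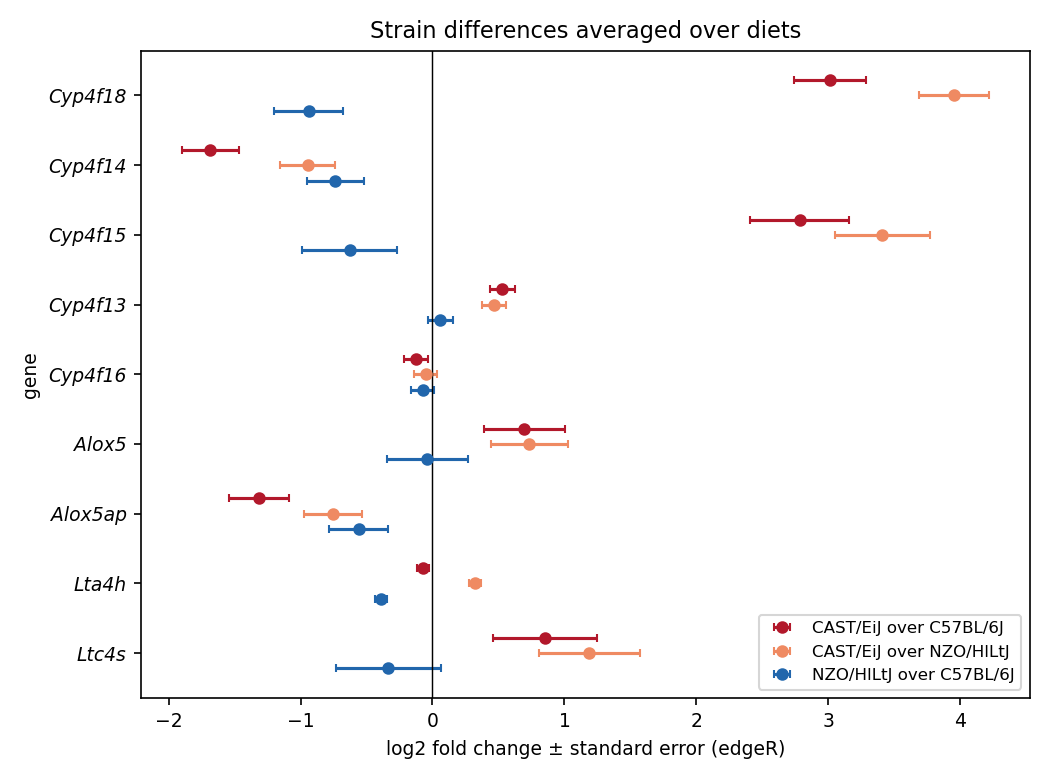
Log2 fold change ± standard error (edgeR, averaged over diets) of the 9 genes for CAST/EiJ over C57BL/6J, CAST/EiJ over NZO/HlLtJ and NZO/HlLtJ over C57BL/6J. Cyp4f18 and Cyp4f15 are higher in CAST/EiJ than in both other strains, by 2.78 to 3.95 log2 units, while Cyp4f14 and Alox5ap lie to the left of 0 in all 3 comparisons.

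The diet contrast in CAST/EiJ, which guided the choice of genes, is given as values only. On 44% over 10% fat, Cyp4f18 was 5.8-fold higher (2.54 ± 0.34 log2 units, SE), Cyp4f14 3.31-fold (1.73 ± 0.31) and Ltc4s 3.05-fold (1.61 ± 0.53). The Ltc4s libraries of the diets overlapped, and without CAST/EiJ 44% fat replicate 3 its difference was 1.84-fold (0.88 ± 0.49). Lta4h differed by 0.19 ± 0.06, and the log2 differences of the other 5 genes lay between -0.01 and 0.15. Libraries did not overlap for 2 of the 9 genes, Cyp4f18 and Cyp4f14, in a contrast where 5.88% of all genes did not overlap (4% higher and 1.88% lower) and 0.624% passed the test (0.525% higher and 0.0991% lower). Without overlap, both genes had to be higher on 44% fat in each of the 3 identifier series. The differences there were 2.28 to 2.54 log2 units for Cyp4f18 and 1.17 to 2.23 for Cyp4f14. Some of these rest on a single library a diet. With the pair of libraries highest in oviduct markers left out, Cyp4f18 was at 2.68, Cyp4f14 at 1.64 and Ltc4s at 2.04, and 3 genes that lay at -0.01 to 0.15 with them were at 0.60 (Cyp4f15), 0.58 (Alox5) and 0.60 (Alox5ap). The test over all genes called 126 genes in this contrast, and 0 when the CAST/EiJ groups were fitted alone.

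In NZO/HlLtJ and in C57BL/6J, 0 of 9 genes passed in the diet contrast (edgeR adjusted p of 1 in NZO/HlLtJ, 0.400 to 0.984 in C57BL/6J), where 0% of all genes passed in either strain. At an unadjusted p under 0.05 there were 0 of 9 genes in NZO/HlLtJ and 2 of 9 in C57BL/6J, against 710 and 1783 of all genes tested, and DESeq2 called 4 and 70 genes. The 2 genes in C57BL/6J were Cyp4f14, at a log2 difference of -1.01 ± 0.31, and Cyp4f13, at -0.45 ± 0.14 (edgeR adjusted p of 0.400 and 0.403). Both passed when C57BL/6J 10% fat replicate 2 was left out (edgeR adjusted p of 0.0463 and 0.0356), with log2 differences of -1.28 and -0.59. That library had 8.66 CPM of Cyp4f14, against 16.4 and 17.9 CPM in the other libraries of its group. Without it, the fit called 330 of all genes, against 0 with it. The C57BL/6J 10% fat group then held only replicates 1 and 3. In NZO/HlLtJ, Cyp4f14 was at -0.55 ± 0.29 and Cyp4f18 at -0.24 ± 0.37. The NZO/HlLtJ diets shared only 1 identifier series, so diet and series cannot be fully told apart in that strain. Within that series, Cyp4f14 was at -0.0039 and Cyp4f18 at 0.50. In C57BL/6J, 2 series held both diets, with Cyp4f14 at -1.55 and -0.85. Libraries of the diets did not overlap for 0 of 9 genes in NZO/HlLtJ, against 2.96% of all genes (1.32% higher and 1.64% lower), and for 1 of 9 in C57BL/6J, Cyp4f16, lower on 44% fat, against 8.08% of all genes (3.2% higher and 4.88% lower).

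The diet differences of Cyp4f14 thus had opposite signs in CAST/EiJ, at 1.73, and in C57BL/6J, at -1.01. In NZO/HlLtJ the difference was -0.55 over all libraries, but -0.0039 within the identifier series that held both diets. As a description, the diet difference in CAST/EiJ minus that in C57BL/6J was 2.74 ± 0.43 for Cyp4f14 and 2.58 ± 0.50 for Cyp4f18, and against NZO/HlLtJ it was 2.28 ± 0.42 and 2.78 ± 0.50. These differences share the CAST/EiJ libraries and hold the contrast that guided the choice, so they carry no test. The diet difference in NZO/HlLtJ minus that in C57BL/6J, which was tested, passed for 0 of 9 genes (edgeR adjusted p of 1.00 for each; 0 of 9 at an unadjusted p under 0.05), where 0% of all genes passed and DESeq2 called 5.

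**Figure D4:**
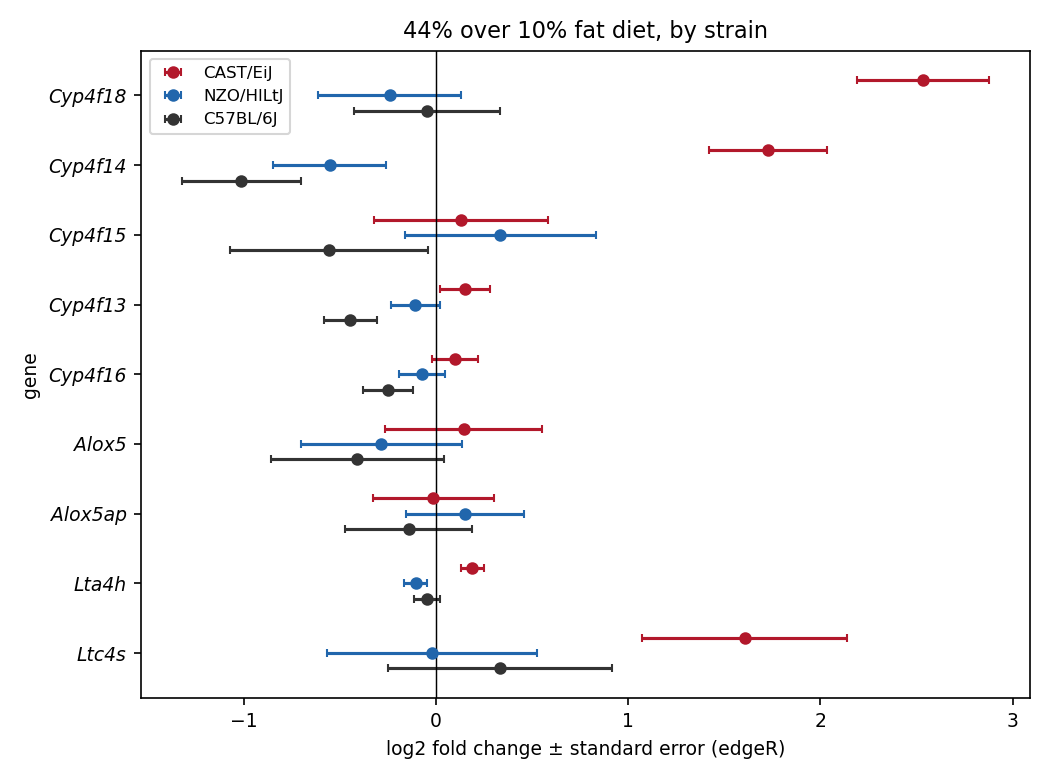
Log2 fold change ± standard error (edgeR) of the 9 genes for 44% over 10% fat in CAST/EiJ, NZO/HlLtJ and C57BL/6J. Cyp4f14 lies at 1.73 in CAST/EiJ and at -1.01 in C57BL/6J, and Cyp4f18 at 2.54 in CAST/EiJ, -0.24 in NZO/HlLtJ and -0.05 in C57BL/6J.

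The rest of the Cyp4f family differed between strains in both directions. Cyp4f17, next to Cyp4f16 in the cluster, was at 7.44 to 11.2 CPM in CAST/EiJ, 4.69 to 6.75 CPM in NZO/HlLtJ and 5.03 to 6.40 CPM in C57BL/6J. It was higher in CAST/EiJ by 0.56 ± 0.09 over NZO/HlLtJ and by 0.64 ± 0.10 over C57BL/6J (edgeR adjusted p of 4.92e-05 and 2.23e-05), with no overlap. Cyp4f39, known in mice for ultra-long fatty acids of the skin barrier, was at 0 to 0.0993 CPM in CAST/EiJ, 0 to 4 counts per library, at 0.456 to 0.970 CPM in NZO/HlLtJ and at 0.397 to 1.07 CPM in C57BL/6J. Its log2 difference was -3.76 ± 0.35 against NZO/HlLtJ and -3.72 ± 0.35 against C57BL/6J (edgeR adjusted p of 2.18e-08 and 3.68e-08), also with no overlap. Cyp4f37 was not tested, with 0 to 8 counts per library. Within the chromosome 17 cluster, CAST/EiJ averaged over diets thus had higher Cyp4f13, Cyp4f15 and Cyp4f17 and lower Cyp4f14 and Cyp4f39 than both other strains. For Cyp4f14, CAST/EiJ libraries lay below those of both strains on 10% fat, and overlapped with them on 44% fat. Its means in CAST/EiJ and C57BL/6J were 1.72 and 14.3 CPM on 10% fat and 5.72 and 7.10 CPM on 44% fat.

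Genes that feed or follow the pathway were taken from lists holding 72 tested genes. Of these, 37 passed in CAST/EiJ against C57BL/6J and 40 in CAST/EiJ against NZO/HlLtJ, where 46.8% and 48.1% of all genes passed, and the counts below are to be read against those shares. Without the pair of libraries highest in oviduct markers, 33 of the 37 and 36 of the 40 passed. Of 16 arachidonate release genes tested, 4 were higher, 4 lower and 8 did not pass in CAST/EiJ against C57BL/6J, and 1, 5 and 10 in CAST/EiJ against NZO/HlLtJ, with median log2 differences of -0.03 and 0.05, against 0.01 and 0.02 for all genes. The secreted phospholipase Pla2g2d was at 0.0248 to 1.25 CPM in CAST/EiJ, 1.91 to 3.86 CPM in NZO/HlLtJ and 0.687 to 1.56 CPM in C57BL/6J. It was lower in CAST/EiJ than in NZO/HlLtJ, at -3.18 ± 0.43 log2 units, without overlap, and NZO/HlLtJ was above C57BL/6J, also without overlap (edgeR adjusted p of 3.75e-06 and 0.0109). Pla2g4e was higher in CAST/EiJ than in C57BL/6J by 1.57 ± 0.37 (edgeR adjusted p = 0.00142). Pla2g4c and Pla2g16 were lower in CAST/EiJ than in both other strains, with log2 differences of -0.95 to -0.50 and -0.79 to -0.66.

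Of 15 genes of leukotriene conversion, export and breakdown, 3 were higher, 5 lower and 7 did not pass in CAST/EiJ against C57BL/6J, and 6, 5 and 4 against NZO/HlLtJ, with median log2 differences of -0.25 and -0.08. Mgst2, a microsomal glutathione transferase that can make leukotriene C4, was lower in CAST/EiJ, with log2 differences of -1.93 ± 0.33 against C57BL/6J and -1.33 ± 0.31 against NZO/HlLtJ (edgeR adjusted p of 6.8e-05 and 0.00166). Ptgr1, which oxidises leukotriene B4 by another route than the Cyp4f enzymes, was higher in CAST/EiJ by 0.49 ± 0.14 than in C57BL/6J and by 0.93 ± 0.13 than in NZO/HlLtJ (edgeR adjusted p of 0.0064 and 1.01e-05). The dipeptidase Dpep3 was higher in CAST/EiJ than in C57BL/6J by 2.53 ± 0.34 and the dipeptidase Dpep2 higher than in NZO/HlLtJ by 0.90 ± 0.27 (edgeR adjusted p of 4.78e-06 and 0.00883). Of 9 receptors tested, 0 were higher and 1 lower in CAST/EiJ against either strain, the formyl peptide receptor Fpr1, at -1.80 ± 0.37 and -1.08 ± 0.36 against C57BL/6J and NZO/HlLtJ (edgeR adjusted p of 0.000501 and 0.0185).

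Other branches of arachidonate use had genes in both directions. Of 4 other lipoxygenases tested, Alox15 alone passed, higher in CAST/EiJ than in NZO/HlLtJ by 2.71 ± 0.91 (edgeR adjusted p = 0.0185), with overlap and with 28.1 CPM in CAST/EiJ 10% fat replicate 2 against a median of 1.51 in that group. Without the pair of libraries highest in oviduct markers it was at 1.26 ± 0.72 and did not pass (edgeR adjusted p = 0.159). Of 13 cyclooxygenase branch genes, 2 were higher and 6 lower in CAST/EiJ against C57BL/6J, and 4 and 5 against NZO/HlLtJ. Cyclooxygenase 1 (Ptgs1) was lower in CAST/EiJ, with log2 differences of -2.09 ± 0.39 against C57BL/6J and -1.03 ± 0.38 against NZO/HlLtJ (edgeR adjusted p of 0.000206 and 0.0291), and so was thromboxane synthase (Tbxas1), at -1.13 ± 0.17 and -0.58 ± 0.17 (edgeR adjusted p of 2.24e-05 and 0.00719). The prostaglandin transporter Slco2a1 was lower too, at -1.44 ± 0.29 and -0.72 ± 0.28 (edgeR adjusted p of 0.000485 and 0.0414), and Hpgds, a prostaglandin D synthase, passed as higher than in NZO/HlLtJ, by 1.49 ± 0.49 (edgeR adjusted p = 0.0176). That call rested on CAST/EiJ 10% fat replicate 2, at 121 CPM, against 5.09 to 16.8 CPM in the other CAST/EiJ libraries and 4.97 to 9.29 CPM in NZO/HlLtJ. Without the pair of libraries highest in oviduct markers Hpgds was at 0.25 ± 0.15 and did not pass (edgeR adjusted p = 0.187).

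Of 13 other arachidonate P450 and epoxide hydrolase genes, 6 were higher and 4 lower in CAST/EiJ against either strain, with median log2 differences of 0.56 against C57BL/6J and 0.40 against NZO/HlLtJ. Cyp2c55 averaged 3.06 and 2.40 CPM in CAST/EiJ on 44% and 10% fat, and was at most 0.0230 CPM in NZO/HlLtJ and at most 0.169 CPM in C57BL/6J, with no overlap (edgeR adjusted p of 6.71e-10 and 7.53e-09). Cyp2j6 was lower in CAST/EiJ, at 3.12 to 4.67 CPM, than in NZO/HlLtJ, at 12.6 to 16.8 CPM, and C57BL/6J, at 13.1 to 27.7 CPM, again with no overlap. Cyp4b1 was higher in CAST/EiJ by 1.76 ± 0.26 than in NZO/HlLtJ and by 0.73 ± 0.26 than in C57BL/6J (edgeR adjusted p of 1.03e-05 and 0.0252), and soluble epoxide hydrolase (Ephx2) lower than in C57BL/6J, at -1.84 ± 0.60 (edgeR adjusted p = 0.0168). Without the pair of libraries highest in oviduct markers, Cyp4b1 did not pass against C57BL/6J, at 0.45 ± 0.24 (edgeR adjusted p = 0.124), and Ephx2 was at -3.01 ± 0.46 against C57BL/6J and at -2.30 ± 0.43 against NZO/HlLtJ, where it had not passed with them (edgeR adjusted p of 4.89e-05 and 0.000314).

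In the diet contrasts of NZO/HlLtJ and C57BL/6J, 0 genes of any of these lists passed. In CAST/EiJ, the contrast that guided the choice of genes, 3 of the 72 passed the threshold, where 0.624% of all genes did, and they are given as a description, named after their values were seen and with no test. All 3 were higher on 44% fat, and without the pair of libraries highest in oviduct markers Ggt5 was not past the threshold. Pla2g7, which breaks down platelet-activating factor, was at 31.5 ± 16.0 CPM on 44% fat and 10.6 ± 2.52 CPM on 10% fat, Ggt5, which turns leukotriene C4 into D4, at 35.3 ± 12.4 and 18.5 ± 1.71 CPM, and Cotl1, an actin-binding protein that also binds 5-lipoxygenase, at 46.3 ± 10.6 and 27.1 ± 2.20 CPM (SD, n = 4 each). Libraries of the 2 diets did not overlap for any of the 3. In the other strains their log2 differences lay between -0.59 and -0.03 and did not pass, and Pla2g7 was lower on 44% fat without overlap in C57BL/6J.

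Markers of cells that could carry these genes were read in the same libraries. In CAST/EiJ, as a description within the contrast that guided the choice, 6 of 13 macrophage markers passed as higher on 44% fat and 0 as lower, where 0.525% and 0.0991% of all genes did. The count was 3 without the pair of libraries highest in oviduct markers, and with the CAST/EiJ groups fitted alone 0 of all genes passed. Their summed level was 319 to 585 CPM on 44% fat and 201 to 271 CPM on 10% fat, without overlap. Of 8 luteal markers 1 passed, and their sum was 11134 to 13105 CPM on 44% fat and 5383 to 7545 CPM on 10% fat, also without overlap. A second list, of 8 markers of lipid-associated macrophages, had 1 that passed as higher. Its sums were 1305 to 2260 CPM on 44% fat and 841 to 1853 CPM on 10% fat, which overlapped. The library with the highest macrophage sum, CAST/EiJ 44% fat replicate 2, had the lowest Cyp4f18 of its group, 34.4 CPM, and replicate 3, with the highest Cyp4f18, had the lowest macrophage sum and the highest luteal sum. By the lipid-associated list the lowest of this group was replicate 4, at 1305 CPM, with replicate 3 at 1486 CPM. Across strains, the macrophage sum was 246 to 371 CPM in NZO/HlLtJ and 332 to 541 CPM in C57BL/6J, and the luteal sum 7331 to 10440 CPM and 11049 to 16423 CPM. Cyp4f18 was at most 2.61 CPM in these libraries. Of the 13 macrophage markers, 2 were higher and 7 lower in CAST/EiJ against C57BL/6J, 3 and 6 in CAST/EiJ against NZO/HlLtJ, and 0 and 5 in NZO/HlLtJ against C57BL/6J. Of the 8 luteal markers the counts were 0 and 4, 1 and 2, and 0 and 3 in the same order. For the 8 lipid-associated macrophage markers they were 0 and 1, 5 and 0, and 0 and 5, so the macrophage lists differed in direction against NZO/HlLtJ. As given above, 23.2% of all genes passed as higher and 23.6% as lower in the first of these comparisons, 24.8% and 23.4% in the second, and 11.6% and 12.3% in the last.

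Markers of other cell types were counted between strains in the same way. Against C57BL/6J, the counts for CAST/EiJ are to be read beside the 23.2% of all genes that passed as higher and 23.6% as lower. Against NZO/HlLtJ these shares were 24.8% and 23.4%. Of 8 white adipocyte markers, 8 were higher in CAST/EiJ than in C57BL/6J and 7 than in NZO/HlLtJ, with median log2 differences of 5.02 and 4.95, and 7 and 7, with medians of 4.49 and 3.11, without the pair of libraries highest in oviduct markers. Their sum was 49.0 to 1942 CPM in CAST/EiJ, 37.1 to 77.3 CPM in NZO/HlLtJ and 29.3 to 117 CPM in C57BL/6J, with maxima of 516, 77.3 and 45.9 CPM without that pair. Of 9 oviduct epithelium markers, 4 were higher in CAST/EiJ than in C57BL/6J and 6 than in NZO/HlLtJ, and 0 were lower, with median log2 differences of 1.85 and 1.32. Without that pair 5 were higher and 1 lower against either strain, with medians of 0.66 and 0.56. Of 5 neutrophil markers 1 and 2 were higher and 0 lower, and 0 and 2 were higher without that pair. The neutrophil medians were 0.30 against C57BL/6J and -0.20 against NZO/HlLtJ, and 0.31 and -0.64 without that pair. Log2 differences were above 0 for 4 of the 5 against C57BL/6J but for only 2 against NZO/HlLtJ. Of 6 mast cell markers 4 and 3 were lower and 0 higher, and of 6 T cell markers 5 and 5 were lower and 0 higher. Without that pair, 3 and 4 of 5 tested mast cell markers and 4 and 5 of 6 T cell markers were lower. The mast cell sum, with genes of a cell type that also makes leukotrienes, was 64.0 to 243 CPM in CAST/EiJ, 143 to 210 CPM in NZO/HlLtJ and 74.2 to 117 CPM in C57BL/6J. That sum did not follow the markers taken one by one. In NZO/HlLtJ against C57BL/6J, 1 of the 6 was higher and 2 lower, where 11.6% and 12.3% of all genes were. Their median log2 difference was -1.33, so the sum is not a measure of how many mast cells there were. The part of these cell types in the strain differences of the 9 genes was not tested.

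Of neutrophil markers, 5 of 10 were tested and 0 passed in any diet contrast, with sums of 8.17 to 16.3 CPM in CAST/EiJ on 44% fat and 5.57 to 106 CPM on 10% fat. Mast cell markers, of a cell type rich in Ltc4s and Alox5, summed to 64.0 to 78.6 CPM in CAST/EiJ on 44% fat and 75.6 to 243 CPM on 10% fat, where the highest value belongs to replicate 2, the library with the most oviduct RNA, and the next was 141 CPM, with 0 of 6 tested markers passing in any diet contrast. The mast cell chymase Mcpt4 was at 0 in all CAST/EiJ libraries on 44% fat. The part of macrophage and luteal RNA in the Cyp4f and leukotriene values was not tested.

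**Figure D5:**
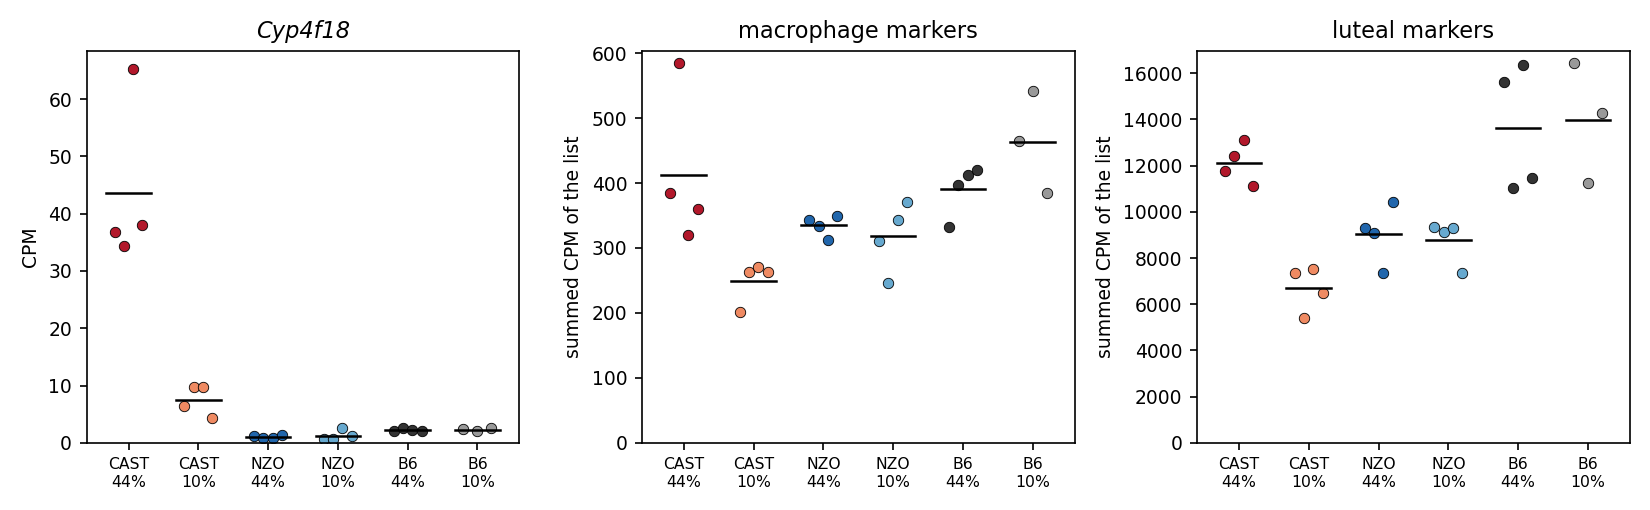
Cyp4f18 CPM (left), summed CPM of 13 macrophage markers (middle) and summed CPM of 8 luteal markers (right) in each library (points), with group means as lines; all axes start at 0. Both sums are higher in CAST/EiJ on 44% fat than on 10% fat, and in C57BL/6J they reach 541 and 16423 CPM while Cyp4f18 stays at 1.97 to 2.54 CPM.

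Genes closest to a member over all 23 libraries were listed by the root-mean-square difference of centred log2 CPM, among 13674 tested genes with a mean of at least 1 CPM. For Cyp4f18 the closest was Shisa7, at 0.68 log2 units, followed by Hsd3b6, a steroid dehydrogenase, Fscn2, Rpl27 and Rpl19, at 0.90 to 0.96, against 1.92 for a gene that did not vary. For Cyp4f14 they were Tmem178, Isoc2b, Tmem86a, Bean1 and Slc16a9, at 0.40 to 0.45, against 0.94. For Cyp4f15 they were Gstm2, a glutathione transferase, Pisd-ps1, Rpl27, Pdk4 and Fscn2, at 0.61 to 0.72, against 1.58. For Alox5ap they were Irf9, an interferon signalling factor, S100a1, Tuft1, Pla2g16 and Hebp2, at 0.32 to 0.34, against 0.69. For Ltc4s they were Arvcf, Tpm4, Ethe1, Mmp2 and Isoc2a, at 0.53 to 0.61, against 0.88. No member was among the 5 closest of another of these members. Of those not listed because of a narrower span, Alox5, with a span of 0.95 log2 units, had Cyp4f13 among its 5 closest. The distance was 0.43, against 0.62 for a gene that did not vary.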

How the data were processed

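The expected counts per gene of 23 ovary libraries were used as the authors deposited them and rounded, 27.4% of the values not being whole. How reads were aligned and counted is not given in the sources used here, nor is whether the sequence of each strain was allowed for. The submitters' processing notes name DESeq2, without a version, and the build GRCm38, which is assembled from C57BL/6J. The authors also deposited variance-stabilised values on a log2 scale, used as an alternative, and gene positions in megabases.

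The edgeR filter filterByExpr was run by group, with a count minimum of 10 and a total minimum of 15. TMM scaling and a robust quasi-likelihood fit of 6 group means over all libraries followed. P-values were adjusted by the Benjamini-Hochberg method over the 20189 genes tested and called under 0.05; standard errors follow from the F statistic. The fit was tested on simulated data. Alternatives comprised DESeq2, RLE scaling, fitting without a filter, a term for the identifier series (leading digits of the library identifier, which no label calls a batch), limma voom with library weights, limma on the deposited log2 values, fits of the compared groups alone, and leaving out every library once. A fit lacking the pair of libraries highest in oviduct markers was added after the data were seen. Libraries were numbered in deposit order. Chi-square per degree of freedom was 11.7 to 209 for the 33 pairs of libraries of 1 group, so none was taken for a repeat.

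The members and gene lists were chosen with earlier results of these data known. Up to 4 genes per pathway list are named, those with the largest log2 fold change among genes called in a tested comparison and with a mean of at least 0.5 CPM. All Cyp4f genes of the table are named, as are the 5 genes most like each member whose group means span at least 1 log2 unit. The work used edgeR 4.0.16, DESeq2 1.42.0 and limma 3.58.1 in R 4.3.3.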

Additional observations from a re-analysis of the deposited data

Results flagged for a closer look

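In 45 checks of a gene within a group of 4 libraries, 6 values lay far from the others of their group by Dixon's criterion. Chance alone meets this criterion in about 1 group in 20. In CAST/EiJ on 44% fat, replicate 3 stood above the rest for Cyp4f18, at 65.2 CPM, and for Cyp4f14, at 9.03 CPM. In CAST/EiJ on 10% fat, replicate 2, the library with the most oviduct RNA, stood above the rest for Alox5, at 1.96 CPM. In NZO/HlLtJ on 44% fat, replicate 3 stood below the rest for Cyp4f14, at 3.61 CPM, and replicate 2 below the rest for Cyp4f16, at 10.5 CPM. In NZO/HlLtJ on 10% fat, replicate 3 stood above the rest for Ltc4s, at 0.825 CPM.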

How the results depend on the processing

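Under the 31 alternatives, the strain differences of Cyp4f18, Cyp4f15, Cyp4f13, Cyp4f14 and Alox5ap between CAST/EiJ and both other strains, and those of Lta4h and Cyp4f18 against NZO/HlLtJ or C57BL/6J that passed, kept their direction and their call. Where another call was lost or gained, or a value changed sign, the cause was not tested. Without a replicate in turn, 5 to 6 members passed in CAST/EiJ against C57BL/6J, 7 to 8 in CAST/EiJ against NZO/HlLtJ and 2 to 4 in NZO/HlLtJ against C57BL/6J. Alox5 passed in CAST/EiJ against C57BL/6J without NZO/HlLtJ 10% fat replicate 2 (0.0358) or C57BL/6J 44% fat replicate 4 (0.0384), and Ltc4s without CAST/EiJ 44% fat replicate 4 (0.0461). No paired analysis was possible because the labels carry no replicate numbers, so the term for the identifier series is the only block that was fitted.

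Over all genes, the 126 calls for diet in CAST/EiJ became 596 in DESeq2, 66 with the identifier series, 220 in limma voom and 0 with only these groups, and 28 (without CAST/EiJ 44% fat replicate 2) to 220 (without CAST/EiJ 10% fat replicate 1) with a library left out. The 0 calls for diet in NZO/HlLtJ became 4 in DESeq2, 2 in limma voom and 0 to 1 with a library left out. The 0 calls for diet in C57BL/6J became 70 in DESeq2, 791 in limma voom and 0 to 330 with a library left out, the highest without C57BL/6J 10% fat replicate 2, and the 0 members became 2 in limma voom and 0 to 2. The 4828 calls of NZO/HlLtJ against C57BL/6J became 7916 in limma voom, and the 0 calls of the difference in diet effect between these strains became 5 in DESeq2.

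On the deposited log2 scale, the CAST/EiJ diet differences were smaller, at 1.97 for Cyp4f18, 0.80 for Cyp4f14 and 0.49 for Ltc4s. Changes of sign were found for small differences. For diet in CAST/EiJ, Alox5ap was at 0.53 in limma voom, 0.050 on the deposited log2 scale and 0.60 without the pair of libraries highest in oviduct markers. For diet in NZO/HlLtJ, limma voom gave -0.11 for Cyp4f15 and 0.26 for Cyp4f18, and the identifier series 0.046 for Cyp4f18 and 0.48 for Ltc4s. For diet in C57BL/6J, limma voom gave 0.16 for Cyp4f15 and 0.043 for Alox5ap, and Cyp4f18 was at 8.34e-06 without that pair. For the difference in diet effect of NZO/HlLtJ minus C57BL/6J, limma voom gave -0.27 for Cyp4f15 and 0.36 for Cyp4f18, and the identifier series 0.063 for Cyp4f18 and 0.12 for Ltc4s.

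With a library left out, the ranges that crossed 0 for diet in CAST/EiJ were -0.15 to 0.59 for Cyp4f15, -0.014 to 0.58 for Alox5 and -0.23 to 0.60 for Alox5ap. For diet in NZO/HlLtJ they were -0.21 to 0.0019 for Cyp4f13, -0.16 to 0.063 for Cyp4f16, -0.47 to 0.40 for Cyp4f18 and -0.28 to 0.19 for Ltc4s. For diet in C57BL/6J they were -0.88 to 0.37 for Cyp4f15, -0.13 to 0.014 for Cyp4f18, -0.28 to 0.063 for Alox5ap and -0.076 to 0.0056 for Lta4h. Between strains they were -0.11 to 0.016 for Cyp4f16 in CAST/EiJ against NZO/HlLtJ, and -0.0075 to 0.11 for Cyp4f13 and -0.19 to 0.11 for Alox5 in NZO/HlLtJ against C57BL/6J. For the difference in diet effect they were -0.027 to 1.22 for Cyp4f15, -0.42 to 0.45 for Cyp4f18 and -0.17 to 0.41 for Alox5. Alox5 and Ltc4s, with means of 33.3 and 39.3 counts per library, were the most limited by depth.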
